A study of Mus musculus with 4 samples.

Results

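The genes described here encode the MAP kinase cascade, the cyclin-dependent kinases (CDKs) and the protein phosphatases of mouse liver. They were taken by gene symbol from 2 lists of N6-methyladenosine (m6A) peaks, as every gene named Mapk, Map2k, Map3k, Map4k or Cdk with a number, Dusp with a number, or Ppp1 to Ppp6. The symbols found 99 genes, 35 kinases and 64 phosphatases or phosphatase subunits, of 9650 genes with a peak. These 99 genes carried 163 of the 14693 peaks in the HKO list and 159 of the 14057 peaks in the FF list.

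The HKO list came from livers of Alkbh5-HKO mice and the FF list from livers of Alkbh5flox/flox mice. The mice of both genotypes were 9 weeks old and on normal chow. Each genotype is 1 pool of 300 μg RNA taken from 3 mice. What the H stands for, and which promoter drives the deletion, is not given in the sources at hand. ALKBH5 erases m6A, which was mapped here by methylated RNA immunoprecipitation sequencing (MeRIP-seq). In this assay RNA fragments that carry m6A are pulled down with an antibody (the immunoprecipitate, IP) and sequenced beside the input, and a peak marks where IP reads exceed those of the input. Each genotype had 1 IP and 1 input library, so nothing below has a replicate check and no p-value between genotypes is given. Alkbh5 itself had 0 peaks in the HKO list and 3 in the FF list. The hepatocyte genes Apob (9 HKO and 10 FF peaks) and Hnf4a (3 and 3) carried peaks in both lists, whereas Alb, Cps1, Cyp2e1 and Ttr each had 1 peak in a single list. Peak lists hold neither read totals nor RNA levels, so sequencing depth is unknown, and fewer methylated molecules and less RNA of a gene cannot be told apart.

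A MAP kinase cascade passes a signal along kinases that phosphorylate each other in turn, a MAP4K or receptor acting on a MAP3K, this on a MAP2K and this on a MAP kinase. CDKs are kinases that need a cyclin partner; some drive the cell cycle and others act on RNA polymerase II. Protein phosphatases reverse these reactions. Many of the dual-specificity phosphatases (DUSPs), though not all, switch off MAP kinases. The catalytic subunits of PP1, PP2A, PP4 and PP6 are steered to their substrates by regulatory subunits. In liver these enzymes act on growth, stress and inflammatory signals and on glycogen synthesis. Most m6A of messenger RNA lies near the stop codon and in long internal exons, within short motifs of which GGACT is the best known, and antibodies to m6A also bind the related cap-adjacent base m6Am.

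Kinases and phosphatases were listed in both genotypes at about the same share. Of the 35 kinases, 30 had peaks in both lists (85.7%, 70.6 to 93.7), 1 in HKO alone and 4 with FF peaks alone. Of the 64 phosphatases, 54 had peaks in both lists (84.4%, 73.6 to 91.3), 5 in HKO alone and 5 in FF alone. Here and below, the range after a percentage is its 95% Wilson interval, for counting error alone. Over all 9650 genes the shares were 75.6% in both lists, 13.2% in HKO alone and 11.2% in FF alone. The annotation holds 162 protein-coding genes with symbols of this form, and those with a peak in neither list included Mapk8 (JNK1), Mapk14 (p38 alpha), Ppp1ca, Ppp2r1a and Ppp3r1. The share of all annotated genes that had a peak was not counted. Here and below, counts out of annotated members therefore have no baseline and mark no trait of a group. A gene without a peak may still carry m6A, because peaks cannot be called where reads are scarce.

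The position of the peaks that were listed in a single genotype differed between the lists. Shared peaks were those whose exon blocks had at least 1 bp in common with a same-strand peak of the other list, and the remaining peaks are called list-specific. Of the members' peaks, 37 of 163 were HKO-specific (22.7%, 16.9 to 29.7) and 35 of 159 were FF-specific (22.0%, 16.3 to 29.1), against 28.5% of all HKO peaks and 25.2% of all FF peaks. Among these, 0 of 37 HKO-specific peaks had their centre 500 bp or less from the annotated start of the gene, where a count of 0 allows a share of up to 8.11% by the limit of 3 counts and 9.41% by the Wilson interval, and 20 of 35 FF-specific peaks did (57.1%, 40.9 to 72.0). Over all genes the same shares were 4.71% of HKO-specific and 34.7% of FF-specific peaks, so the members leaned the same way as the whole lists. The FF share was reached by both classes, with 10 of 18 FF-specific peaks on kinases and 10 of 17 on phosphatases. Most of these start peaks had a high q: 5 of the 20 had a q of 1e-05 or below. Among list-specific peaks of members within that limit, 5 of 8 in FF and 0 of 13 in HKO lay at the start. Counted by the near edge of a peak, which gives the same member counts, 457 of 959 in FF and 38 of 1378 in HKO did over all genes. The members thus leaned the same way as all genes here too. Within 1000 bp of the gene end lay 9 of 37 HKO-specific peaks (24.3%, 13.4 to 40.1) and 5 of 35 FF-specific peaks (14.3%, 6.26 to 29.4), intervals that overlap, against 33.5% and 17.1% over all genes. With shared peaks included, the start held 17 of 163 member peaks in HKO (10.4%, 6.61 to 16.1) and 37 of 159 in FF (23.3%, 17.4 to 30.4), against 7.39% and 15.0% of all peaks. The end held 47 of 163 in HKO (28.8%) and 38 of 159 in FF (23.9%), against 30.9% and 26.5% of all peaks.

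With both lists restricted to a q of 1e-05 or below, 3 kinases and 5 phosphatases stood in HKO alone, and 2 kinases and 5 phosphatases in FF alone. These counts include genes that had peaks in the other list, all of a higher q. Of the genes in a single list without the limit, 1 kinase and 1 phosphatase in HKO met it. In FF, 2 kinases and 2 phosphatases did. Of the 7314 genes with such a peak, 15.8% were in HKO alone and 9.65% in FF alone. Peaks with the same limits in both lists made up 11 of the 163 HKO peaks of members, against 4.76% of all HKO peaks, and they allow the same bases to be set side by side.

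**Figure D1:**
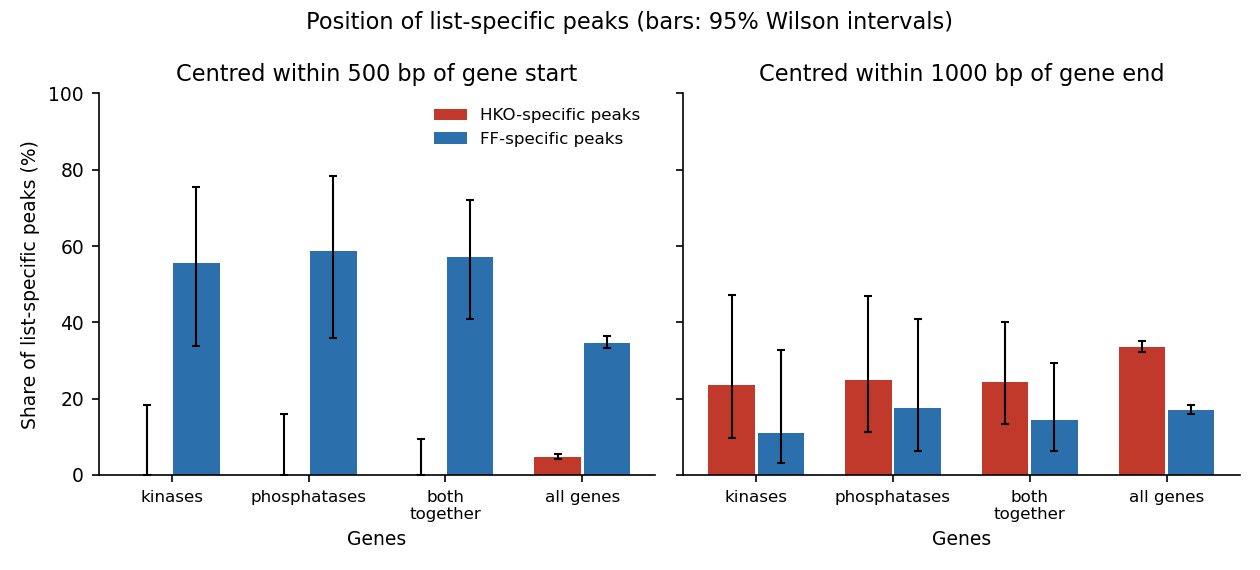
Share of list-specific peaks (vertical axis, percent) centred within 500 bp of the gene start (left) or within 1000 bp of the gene end (right), for kinases, phosphatases, both together and all genes, with HKO-specific peaks in red left of FF-specific peaks in blue. Error bars are 95% Wilson intervals; at the start the red bars of the members stand at 0 and the blue bars at 55.6% and 58.8%.

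**Figure D2:**
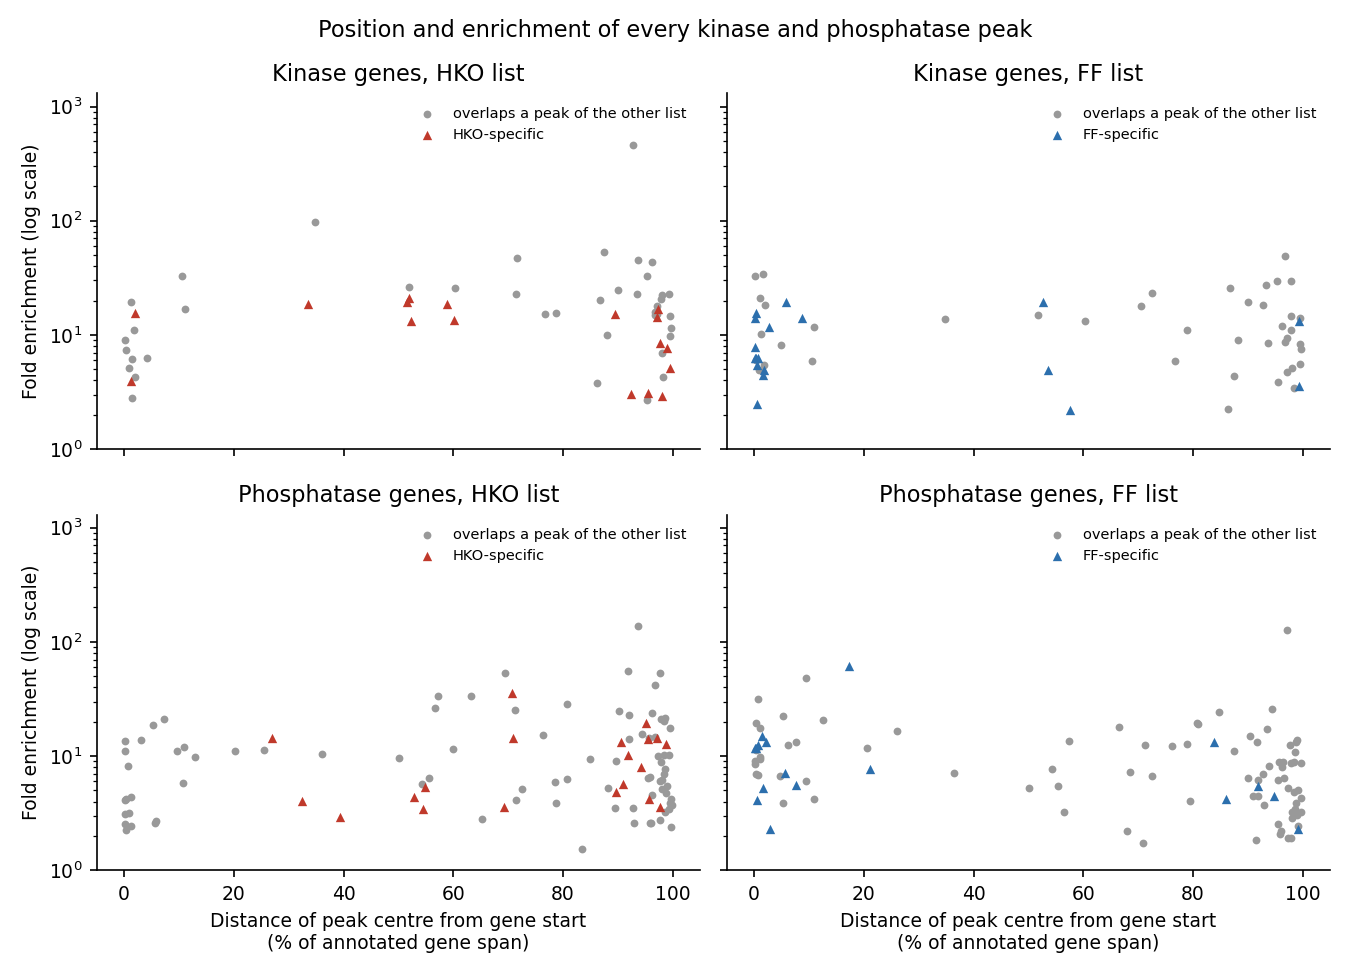
Every peak of the kinase genes (upper panels) and phosphatase genes (lower panels), in the HKO list (left) and the FF list (right), by the distance of its centre from the gene start (horizontal axis, percent of the gene span) and its fold enrichment of IP over input (vertical axis, log scale). Grey circles overlap a peak of the other list and coloured triangles are list-specific; the triangles of the FF list crowd at the left edge and those of the HKO list do not.

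Counted by gene, 37 members had a start peak: 17 in both lists, 0 in HKO alone and 20 in FF alone. Over all 2322 genes with a start peak, 36.0% had it in both lists, 10% in HKO alone and 54.0% in FF alone. Those with it in FF alone were Cdk8, Cdk10, Cdk17, Cdk19, Map2k1, Map2k3, Map2k7, Map3k10, Mapk9 and Mapk15 among kinases, and Dusp12, Dusp19, Ppp1r9b, Ppp1r11, Ppp1r13l, Ppp1r14a, Ppp1r35, Ppp2r1b, Ppp2r2a and Ppp5c among phosphatases. Of these 20 genes, 5 had a start peak with a q of 1e-05 or below, namely Map2k1, Map3k10, Ppp1r11, Ppp1r35 and Ppp2r2a. The start peaks of the others had a higher q. The 17 with a start peak in both lists included the catalytic subunits Ppp1cb, Ppp2ca, Ppp2cb and Ppp4c and the kinases Mapk3, Map3k5 and Cdk9. The start is that of the whole annotated gene span, so a promoter inside a gene is not counted.

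The sequence around the annotated first base is shown for the 7 members in which a peak of either list covered that base and RefSeq (GRCm38.p6) gives a promoter entry beginning there. Each run holds 10 bases before the first transcribed base, that base as the single capital letter, and the 19 bases after it, 5′ to 3′ on the gene's strand.
Ppp2ca, chr11:52098814-52098843, plus strand: ggcggccgccAttacagaaagccgagtccc
Ppp4r3b, chr11:29172966-29172995, plus strand: agagaaaggcAgagagtcgggttacaagat
Dusp1, chr17:26508453-26508482, minus strand: acgagcgcgcAgtgaaggactggcgggagg
Cdk9, chr2:32712765-32712794, minus strand: cctcgaggccGgaagtggccgtggaggcgg
Map2k1, chr9:64253586-64253615, minus strand: ctcaccctccAgtccctcactgggacgtct
Ppp1r14b, chr19:6975038-6975067, plus strand: ggggagggggCggggcgcggccaggccaag
Ppp2r5a, chr1:191397022-191397051, minus strand: cgcaccgagtCccccctcacccgaaccagc
In Ppp2ca, Ppp4r3b, Dusp1 and Cdk9 the base lay in a peak of both lists, and in Map2k1, Ppp1r14b and Ppp2r5a it lay in an FF peak and in no HKO peak. Ppp1r14b and Ppp2r5a did have an HKO start peak that overlapped the FF peak, with its edge 30 bp from the first base. Map2k1 had no HKO peak. The first base was A in 4 of the 7.

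Entries beginning at the annotated start were found for 39 of the 99 members. The first base was A in 8 of the 17 that had a start peak (47.1%, 26.2 to 69.0) and in 6 of the 22 that had none (27.3%, 13.2 to 48.2), intervals that overlap. Over all genes with such an entry it was A in 31.7% of the 1304 with a start peak and 28.3% of the 2972 with peaks elsewhere, and in 36.7% of all 19826 entries, genes without peaks included. The letters GGACN, N being A, C or T, stood within the first 50 transcribed bases of 2 of the 39 members (5.13%), Dusp1 being the case shown above, and of 15.5% of all entries. Read on the opposite strand the same letters stood in 8 of the 39 (20.5%) and in 13.6% of all. These matches describe the letters in a short window and locate no modified site.

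Start peaks also ranked differently within each list. In the HKO list the 17 start peaks of members had a median fold enrichment of 4.11 (interquartile range 2.68 to 8.17) and the other 146 peaks 11 (5.09 to 19.5). In the FF list the 37 start peaks had a median of 7.83 (6.07 to 12.5) and the other 122 peaks 8.57 (4.55 to 13.8). Over all genes the medians at starts and elsewhere were 5.85 and 11 in the HKO list, and 8.81 and 8.80 in the FF list. Fold enrichment is the authors' own value for a peak, IP over input. Each list rests on its own IP reaction, so folds of the lists set side by side show no direction of change.

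In 10 members there was a start peak and another peak in each list, so that the peaks of a gene could be ranked inside each list. The start peak had the higher fold in 3 of the 10 in the HKO list (30%, 10.8 to 60.3) and in 6 of the 10 in the FF list (60.0%, 31.3 to 83.2). Over the 443 genes of this kind the shares were 28.9% in the HKO list and 65.5% in the FF list. Cdk9, the kinase that releases paused RNA polymerase II, had a start peak of fold 2.80 and a later peak of 47.1 in the HKO list, against 34.5 and 17.9 in the FF list. Map3k5 (ASK1, a kinase that responds to oxidative stress) and Ppp2r5e, a regulatory subunit of PP2A, also had the start peak lower in the HKO list and higher in the FF list. In Ppp2ca and Ppp4r3b the start peak ranked higher in both lists, and in Dusp1, Ppp2r2d, Ppp2r5a and Ppp4r3a it ranked lower in both. The start peaks of Ppp4r3a lay where the annotated gene D130020L05Rik overlaps them.

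**Figure D3:**
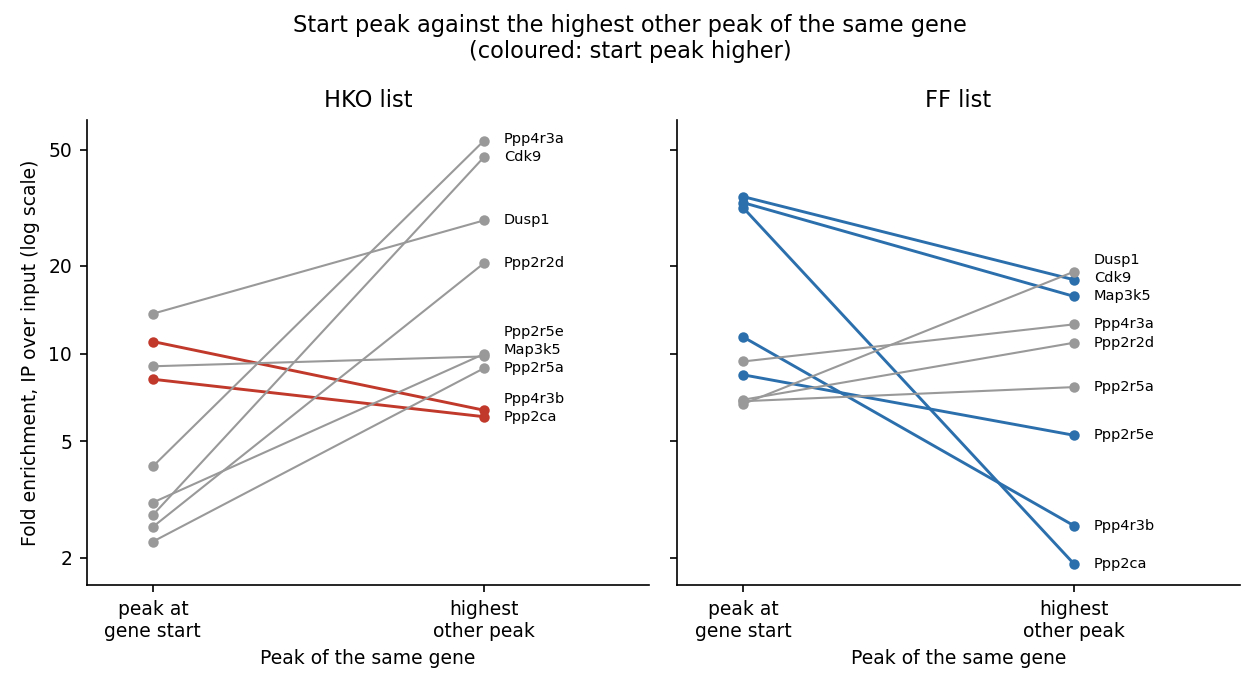
Fold enrichment (vertical axis, log scale) of the peak at the gene start and of the highest other peak, joined by a line for 9 of the 10 members that had both kinds in both lists, in the HKO list (left) and the FF list (right). Coloured lines mark genes whose start peak was higher: 2 of the 9 in the HKO list and 5 of the 9 in the FF list.

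Among MAP kinases, Mapk3 carried its peak at the start, and JNK and p38 genes were sparsely listed. In what follows q is the authors' adjusted p-value of a peak against its input, given as its log10, and a peak with a q above 1e-05 is called weak. Mapk3 (ERK1) had a single peak with the same limits in each list, spliced over 2 exon blocks from 126759626 to 126760774 on chromosome 7, with a fold of 4.28 (log10 q -11.4) in HKO and 18.4 (log10 q -27.6) in FF. Mapk6 (ERK3, an atypical member) had 1 shared inner peak, with a fold of 26.1 in HKO and 15.0 in FF. Mapk7 (ERK5) had 2 peaks in each list, of which those of fold 22.9 in HKO and 23.5 in FF overlapped. The others were weak and did not overlap.

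Mapk9, which encodes JNK2, Mapk12 (p38 gamma) and Cdk8 were the 3 members with peaks in both lists of which none overlapped (4.09% of all genes with peaks in both lists were of this kind). The HKO peak of Mapk9 lay at 49883285 to 49883524 on chromosome 11, 36677 bp from the gene start (fold 3.04, log10 q -11.8). Its FF peak was centred 135 bp from the start and was weak (fold 6.27, log10 q -1.93). The HKO peak of Mapk12 was centred 224 bp from the gene end (fold 2.93, log10 q -2.46), where a predicted gene, Gm46530, overlaps it, and the FF peak 968 bp from the start (fold 14.1, log10 q -2.75). Mapk15, an atypical MAP kinase linked to cilia and autophagy, had a start peak in FF (fold 11.7, log10 q -4.15) but no HKO peak. Of 13 annotated MAP kinase genes, 6 had no peak in either list.

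All 7 MAP2K genes had peaks, and this group held 3 of the strong HKO-specific peaks and 1 of the strong FF-specific peaks of kinases. Strong means here a list-specific peak with a fold of at least 2 and a q no higher than 1e-05, a class that held 6 of 58 HKO kinase peaks (10.3%) and 3 of 60 FF kinase peaks (5.0%), against 8.87% and 6.40% of all peaks. Over kinases and phosphatases together it held 13 HKO peaks (7.98%) and 8 FF peaks (5.03%). Map2k1 (MEK1) and Map2k2 (MEK2) both activate ERK, and they differed in where they were listed. Map2k1 had 0 HKO peaks and 2 FF peaks, the stronger reaching from the first base to 330 bp into the gene at 64253276 to 64253605 on chromosome 9 (fold 6.27, log10 q -10.2). The other joined 2 inner exons (fold 2.22, log10 q -2.79). Map2k2 had its peaks near the gene end, a shared peak of fold 2.71 in HKO and 3.84 in FF, and an HKO-specific peak 432 bp before the end, on chromosome 10 from 81124160 to 81124369 (fold 8.49, log10 q -11.6).

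Of the activators of p38, Map2k3 had a shared peak near the gene end (fold 6.96 in HKO and 5.17 in FF), an HKO-specific peak of 91 bp beside it (fold 3.10, log10 q -7.46) and a weak FF-specific start peak (fold 2.49, log10 q -1.94). Map2k6 had 1 shared inner peak (24.6 in HKO and 19.6 in FF). Of the activators of JNK, Map2k4 had 1 broad HKO peak of 985 exonic bp (fold 20.7) where the FF list had 2 peaks (29.8 and 3.45), all of them overlapping. Map2k7 had 2 shared peaks toward the gene end, with folds of 15.6 and 9.97 in HKO and 11 and 9.03 in FF, and an FF-specific start peak (fold 4.96, log10 q -3.38). Map2k5, the activator of ERK5, had a single peak at 63377371 to 63377611 on chromosome 9 in HKO (fold 15.7, log10 q -6.67) but no FF peak.

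MAP3K genes had the most peaks of the kinase groups, 25 in the HKO list and 21 in the FF list on 12 genes, and 11 of the 12 were in both lists. Map3k7 (TAK1, which acts below TNF, IL-1 and TGF-beta receptors) had a shared peak 3767 bp before the gene end, of fold 45.4 in HKO and 8.53 in FF, and a weak HKO-specific peak at the end (fold 5.09, log10 q -2.92). Map3k5 had shared peaks at the start (9.05 in HKO and 32.9 in FF) and at the end (9.78 in HKO and 5.62 in FF), and an FF-specific peak 748 bp from the start (fold 15.7, log10 q -3.17). Map3k4 (MEKK4) shared its end peak (11.4 in HKO and 7.47 in FF). It carried in addition 3 HKO-specific peaks close to each other in the middle of the gene, at 12270923 to 12271162, 12271312 to 12271492 and 12271731 to 12272001 on chromosome 17, with folds of 13.2, 21.2 and 19.5 and log10 q of -7.96, -4.68 and -4.20. These were the most HKO-specific peaks on a kinase.

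Map3k10 (MLK2) had 3 peaks in each list. Its end peak was shared (22.3 in HKO and 11 in FF), as was the peak near the start (6.34 in HKO and 8.09 in FF). The HKO list added an inner peak (fold 18.7, log10 q -3.97) and the FF list a peak centred 135 bp from the start (fold 6.27, log10 q -6.09). Map3k13 (LZK), with 4 HKO peaks and 3 FF peaks, had its highest peak in common, 33.1 in HKO and 29.8 in FF. Map3k3 (MEKK3) had 1 shared peak, of fold 15.9 in HKO and 49 in FF. Map3k6 (ASK2) had a weak peak 104 bp from the gene end in FF (fold 13.3, log10 q -2.54) but no HKO peak. Of the remaining MAP3K genes, Map3k1, Map3k11, Map3k14, Map3k20 and Map3k21 had their strongest peak in common. That of Map3k14 lay where a predicted gene, Gm34823, overlaps it. Map4k4, a kinase of stress signalling and the single MAP4K with a peak, had weak overlapping peaks of fold 15.3 in HKO and 5.87 in FF.

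Cdk1, Cdk2, Cdk4 and Cdk6, which drive the cell cycle, had a peak in neither list, nor did Cdk7, which activates other CDKs and phosphorylates RNA polymerase II. Of 18 annotated CDK genes, 8 had a peak and 7 of these were in both lists. Cdk13, a partner of cyclin K that phosphorylates RNA polymerase II, had the same spliced peak in both lists, 17717852 to 17719376 on chromosome 13. This peak had a fold of 462 in HKO (log10 q -143), the highest of any member, and of 18.2 in FF (log10 q -112). The inner peak of Cdk13 had a fold of 98.4 in HKO and 13.7 in FF, and its peak near the start 6.22 in HKO and 21.1 in FF. Cdk12, the other partner of cyclin K, had 5 peaks in each list and all of them overlapped, with folds of 5.09 to 33.1 in HKO and 4.96 to 13.3 in FF. Most of these peaks were weak, with log10 q from -2.0 to -19.1 in HKO and from -1.72 to -6.03 in FF.

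Cdk9 had a peak before the gene end with folds of 47.1 in HKO (log10 q -254) and 17.9 in FF (log10 q -257) beside its start peak. Cdk8 and Cdk19 are the kinases of the Mediator complex. Cdk8 had an HKO peak that joined 2 exon blocks and was centred 956 bp from the gene start (fold 3.99, log10 q -5.54) and an FF peak centred 344 bp from it (fold 5.48, log10 q -3.77). Cdk19 had 1 shared peak, weak in both lists (15.3 in HKO and 9.40 in FF), an HKO-specific neighbour (17.0, log10 q -3.50) and an FF-specific start peak (7.83, log10 q -3.16). Cdk16, a kinase of the PCTAIRE branch, had 1 peak in the FF list, centred 704 bp from the start on chromosome X (fold 19.6, log10 q -5.84), and had no HKO peak. Cdk17 of the same branch had a shared peak (53.5 in HKO and 4.34 in FF) and an FF-specific start peak (14.1, log10 q -2.75). Cdk10 had a shared peak at the gene end (4.29 in HKO and 14.6 in FF), where the annotated gene Spata2l overlaps it, and a weak FF-specific start peak (4.44, log10 q -2.46).

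**Figure D4:**
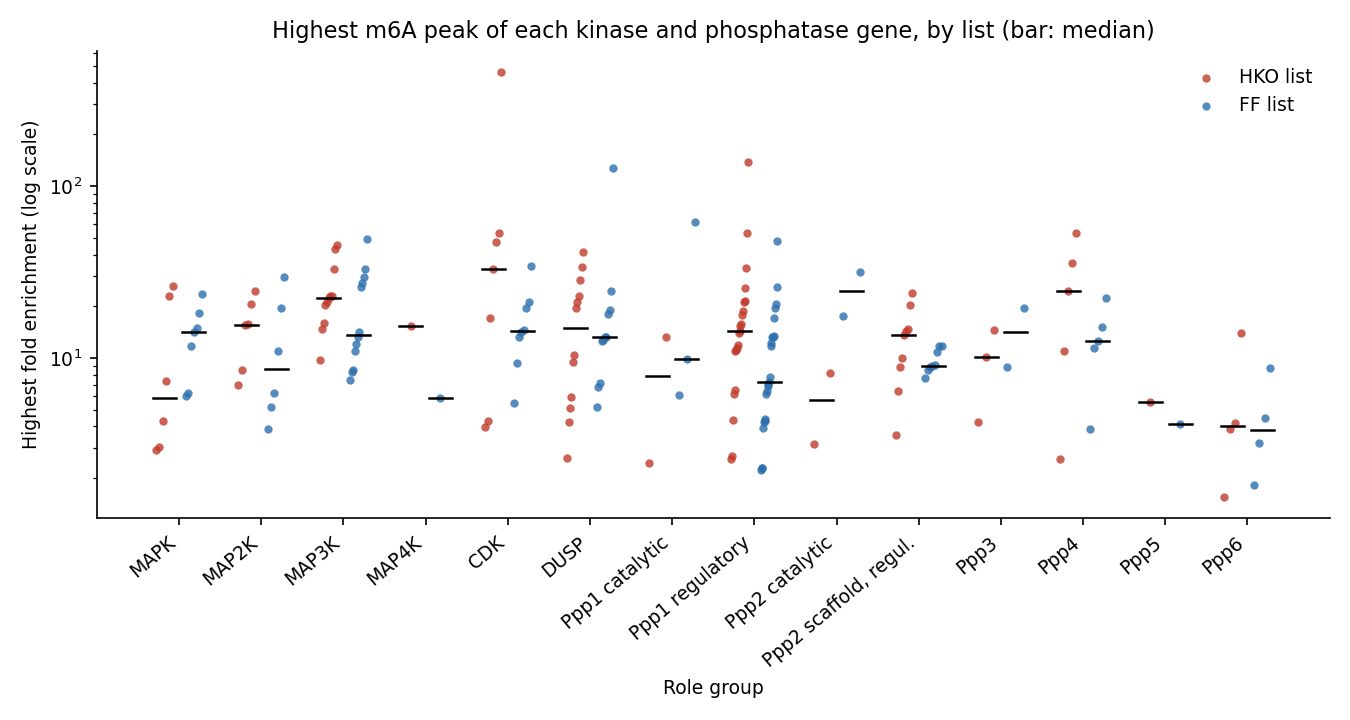
Highest fold enrichment of each member in the HKO list (red, left) and the FF list (blue, right) by role group (horizontal axis), on a log scale, with a bar at the median. The highest points are Cdk13 in HKO (462), Ppp1r13b in HKO (138) and Dusp16 in FF (128), and the ranges of the lists overlap in the groups with 4 or more genes.

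The DUSPs had peaks on 13 of 24 annotated genes, 10 of them in both lists. Of the nuclear MAP kinase phosphatases, Dusp1 and Dusp4 were in both lists, Dusp5 had HKO peaks alone and Dusp2 had a peak in neither list. Dusp1, an immediate early gene that inactivates p38 and JNK, had an end peak with the same limits in both lists, with a fold of 28.6 in HKO and 19.1 in FF, and a start peak of 13.7 in HKO and 6.72 in FF. Dusp4 had 1 shared peak, of fold 22.9 in HKO (log10 q -5.16) and weak in FF (13.3, log10 q -2.54). Dusp5, a phosphatase of nuclear ERK, had 2 weak peaks near the gene end on chromosome 19 in the HKO list, at 53541095 to 53541303 (fold 19.5, log10 q -4.36) and 53541512 to 53541779 (fold 12.7, log10 q -2.40). It had no FF peak.

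Dusp6 and Dusp7, the cytoplasmic phosphatases of ERK, were in both lists. Dusp6 shared 2 peaks, of fold 10.4 and 3.87 in HKO and 7.14 and 4.08 in FF, and had an HKO-specific peak between them at 99266032 to 99266329 on chromosome 10 (fold 3.60, log10 q -11.7). Dusp7 had 1 shared peak (5.94 in HKO and 12.8 in FF). Of the phosphatases of JNK and p38, Dusp16 shared an inner peak and had overlapping peaks toward the gene end, 1 HKO peak of 1291 exonic bp (fold 41.6) against 2 FF peaks (128 and 7.99). Dusp10 shared 2 peaks that were weak in both lists and had an HKO-specific peak between them (fold 14.4, log10 q -5.96). Among atypical DUSPs, Dusp22 had a weak peak in HKO (fold 4.24, log10 q -2.85) but no FF peak, and Dusp12 a weak start peak in FF (fold 5.22, log10 q -2.01) but no HKO peak. Dusp11, an RNA phosphatase, had the same spliced peak in both (5.11 in HKO and 6.75 in FF), and Dusp3, Dusp19 and Dusp23 shared their peak of smallest q.

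Catalytic subunits of PP1, PP2A and PP4 had start peaks in both lists. Ppp2ca, the main catalytic subunit of PP2A, had a start peak from 52098824 to 52113149 on chromosome 11, over 2 exon blocks and with the same limits in both lists. Its start peak and end peak had folds of 8.17 and 6.08 in HKO, against 31.6 and 1.90 in FF, a ratio of start to end of 1.34 in HKO and 16.6 in FF. The end peaks overlapped but differed in extent, with 446 exonic bp in HKO and 209 in FF, so the ratios do not rest on the same bases. Ppp2cb, the other PP2A catalytic subunit, had a single start peak of 3.16 in HKO (log10 q -19.6) and 17.6 in FF (log10 q -92.7). Ppp1cb of PP1 had a start peak of 2.44 in HKO and 9.89 in FF, and Ppp4c of PP4 a start peak of 2.60 in HKO and 22.3 in FF. Ppp3ca, a catalytic subunit of calcineurin, had overlapping peaks centred 898 bp from the start in HKO (fold 4.24) and 793 bp in FF (fold 19.6), outside the window used for starts.

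The other catalytic subunits with peaks were Ppp1cc, Ppp1ccb, Ppp3cb, Ppp3cc, Ppp5c and Ppp6c. Ppp3cb of calcineurin had a shared peak before the gene end (14.5 in HKO and 8.85 in FF), as did Ppp6c of PP6 (14 in HKO and 4.46 in FF). Ppp5c had a shared end peak (5.52 in HKO and 3.08 in FF) and a weak FF-specific start peak (4.11, log10 q -1.96). Ppp3cc had a weak inner peak in HKO (fold 10.2, log10 q -3.86) but no FF peak. Ppp1cc of PP1 had 0 HKO peaks and 1 FF peak, at 122158312 to 122168200 on chromosome 5 over 2 exon blocks (fold 61.9, log10 q -56.8), the strongest q among list-specific peaks of the members. The related gene Ppp1ccb on chromosome 7 had an overlapping start peak in both lists (5.87 in HKO and 6.07 in FF) and an HKO-specific peak at the end (13.2, log10 q -5.27), over the predicted gene Gm19963. Reads of these 2 genes may be shared or split, so the values of both are uncertain.

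Among PP1 regulatory subunits, 24 of 41 annotated genes had peaks and 20 of these were in both lists. Of the glycogen-targeting subunits, which bring PP1 to glycogen synthase and phosphorylase, Ppp1r3b, Ppp1r3c, Ppp1r3e and Ppp1r3g had peaks in both lists, and Ppp1r3a, Ppp1r3d and Ppp1r3f had a peak in neither. Ppp1r3b, the main liver form, had an inner peak of fold 15.4 over 1521 exonic bp in HKO (log10 q -127) and of fold 12.2 over 1580 bp in FF (log10 q -237). Its end peak, with the same limits in both lists, had 5.16 in HKO and 2.88 in FF. Ppp1r3c had 892 bp in the same limits in both lists (33.5 in HKO and 13.5 in FF). Ppp1r3g had 2 shared peaks, the higher of 15.7 in HKO and 25.8 in FF. Both HKO peaks of Ppp1r3e were weak (log10 q -2.67 and -4.36), and they overlapped its FF peak (log10 q -5.89). Ppp1r15b, which directs PP1 to the translation factor eIF2 alpha, had 3 shared peaks, with folds of 9.87, 11.2 and 4.61 in HKO and 20.5, 16.5 and 2.23 in FF. Its stress-induced relative Ppp1r15a had 3 weak HKO peaks and 1 weak FF peak. Ppp1r13b (ASPP1, a regulator of p53) had shared peaks of up to 138 in HKO and 17.2 in FF. Ppp1r9b (spinophilin) had 3 HKO peaks and 5 FF peaks, the highest being 18.7 in HKO and 47.8 in FF.

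PP1 regulators held 2 strong HKO-specific and 3 strong FF-specific peaks. In the HKO list they lay on Ppp1r10, a nuclear targeting subunit, 704 bp from the gene end (fold 14, log10 q -11.5), and on Ppp1r7, an ancient regulator of PP1, 1393 bp from the end (8.06, log10 q -5.45). In the FF list they lay at the start of Ppp1r11, an inhibitor of PP1 (7.05, log10 q -5.51), and of Ppp1r35, a centriole protein (7.75, log10 q -28.1), and 2587 bp from the start of Ppp1r37 (5.55, log10 q -15.1). Ppp1r35 is a short gene, and its peak lay also within 1000 bp of the gene end. Ppp1r35 had no HKO peak, and Ppp1r14a and Ppp1r21 had weak FF peaks (log10 q -1.84 and -2.10) and no HKO peak. Ppp1r2, a PP1 inhibitor, had a weak HKO peak (14.4, log10 q -2.81) and no FF peak. The other PP1 regulators with peaks, Ppp1r8, Ppp1r12a, Ppp1r12b, Ppp1r12c, Ppp1r13l, Ppp1r14b, Ppp1r16a and Ppp1r18, shared at least their strongest HKO peak.

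PP2A regulators had 20 HKO and 17 FF peaks on 9 genes, 8 of them in both lists. Ppp2r5d, a B56 subunit, had a peak 522 bp from the gene end in HKO (fold 3.57, log10 q -9.02) but no FF peak. Ppp2r2a, a B55 subunit, shared 3 peaks near the gene end, with folds of 7.0, 14.8 and 2.61 in HKO and 4.87, 6.39 and 2.07 in FF, and had in addition an FF-specific peak covering the gene start (11.7, log10 q -5.13). Ppp2r5e shared its inner peaks (9.97 and 2.75 in HKO, 5.25 and 1.91 in FF) and its start peak (3.09 in HKO and 8.46 in FF), and had an HKO-specific peak joining 2 exons (5.37, log10 q -4.35). Ppp2r2d, another B55 subunit, shared an end peak of 20.4 in HKO and 10.9 in FF and a start peak of 2.55 in HKO and 6.95 in FF. Ppp2r5a had 3 shared peaks, and its start peak had 2.27 in HKO and 6.87 in FF. Ppp2r5c had a single shared start peak of 13.6 in HKO and 9.09 in FF. Ppp2r3c had 1 shared end peak of 23.8 in HKO and 8.88 in FF. Ppp2r1b, a scaffold subunit, shared an inner peak of 6.42 in HKO and 5.48 in FF and had a weak FF-specific start peak (11.7, log10 q -2.12).

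In PP4, Ppp4r3a had 4 HKO and 3 FF peaks; its spliced peak before the gene end had a fold of 53.6 in HKO, with a q too small for the file to hold, and 12.6 in FF (log10 q -316). Ppp4r2 shared a peak of 24.6 in HKO and 15.1 in FF, and Ppp4r3b a start peak of 11 in HKO and 11.4 in FF. Ppp4r1 had an HKO-specific inner peak of fold 35.6 (log10 q -8.85), and the 3 regulators of PP6 had shared peaks of 1.55 to 4.17 in HKO and 1.83 to 8.71 in FF.

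Genes that work with these enzymes were also looked up, and their shares in both lists lay near the 75.6% of all genes with a peak. Of 40 MAP kinase cascade partners, 30 had a peak, 23 in both lists (76.7%). In HKO alone were 6, among them Araf, a RAF kinase (fold 9.09, log10 q -50.9), Mapkapk2, Mknk1, Rps6ka5 and Spry4, with log10 q of -2.14 to -8.58 for the last 4. In FF alone was Mapkapk5, with a peak centred 328 bp from its start (8.95, log10 q -11.5). Of 38 CDK partners, 25 had a peak, 20 in both lists (80.0%), 4 in HKO alone (Ccnc, Ccnk, Cdkn2d and Med13) and Ccnd3 in FF alone. Ccnk encodes cyclin K, the partner of Cdk12 and Cdk13, and its HKO peak had a fold of 27.2 (log10 q -6.38). Of 42 phosphatase partners and related genes, 26 had a peak, 21 in both lists (80.8%), Gys2, Mob4 and Rcan3 in HKO alone and Arpp19, an inhibitor of PP2A, and Strn4 in FF alone. The Arpp19 peak was centred 263 bp from the gene start (11.5, log10 q -10.5).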

How the data were processed

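MeRIP-seq of liver RNA gave 4 libraries, an IP and an input for each genotype, with fragments of about 100 nt and paired reads of 150 bp. Per the labels and the series design text, peaks were called by the authors separately for each genotype, IP against input, with exomePeak 2.16.0 at a q of 0.05; HOMER 4.9.1, BWA 0.7.12, fastp 0.19.11 and the build GRCm38.p6 stand in the submitters' processing notes, without their roles. The sources name different antibodies and library kits, so whether reads keep their strand is unsettled. The deposited score is a p-value per peak; the deposited log10 q is a score with no lower bound; the deposited fold is a ratio, IP to input, by the authors.

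The overlap, position and interval steps ran in Python 3.11.15 with numpy 2.4.6, pandas 2.3.3 and scipy 1.17.1, figures in matplotlib 3.10.9. Finding overlaps was first tested on simulated data. A peak's centre is the middle base of its exon blocks. Coordinates are GRCm38.p6, from base 1. All 99 symbols matched the RefSeq gene table and 81 its promoter table; 15 HKO and 17 FF peaks of other genes had no position. Genes were named if listed in a single genotype, if they had a strong list-specific peak, if leading their role group in peaks or fold, or from a list of 37 well-known members; others complete a role group. Members, lists and naming rule were chosen with earlier results of these data known. Values of 1 member and of 1 partner gene are not reported here, though both are in the counts.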

Additional observations from a re-analysis of the deposited data

How the results depend on the processing

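Each of 14 counts was recomputed under up to 9 alternatives, and 76 of 85 values stayed within 1.5 times the count reported. With both lists limited to q values up to 1e-05, kinases in a single list became 3 (HKO) and 2 (FF). The FF number was thus no longer the larger. Kinase list-specific peaks became 8 (HKO) and 4 (FF), and phosphatase FF-specific peaks 11. FF-specific start peaks became 9, with HKO-specific start peaks still at 0. Of the 20 FF-specific start peaks without the limit, 5 met it. The others among the 9 were shared start peaks whose HKO partner was weak and so fell outside the limit. With an end window of 500 bp in place of 1000 bp, list-specific end peaks were 5 (HKO) and 1 (FF). Leaving out member peaks over another annotated gene, an alternative chosen after seeing the data, gave 2 kinases in the HKO list alone. It also gave 6 kinases in the FF list alone, against 4, and 27 in both lists, against 30. A fold of 2 or more, lists of equal length, an overlap of 0.5 of the shorter peak, genomic spans in place of exon blocks, a start window of 200 bp, and leaving out Ppp1cc and Ppp1ccb (also chosen after seeing the data) moved no count by over 1.5 times. No paired analysis was possible because 1 pool stands for each genotype, with no replicate number in the labels. The lists hold no read totals, so depth limits them in an unknown way.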
